A study of Mus musculus with 2 samples.

Results

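The machinery that docks, primes and fuses secretory vesicles was examined through 33 genes: syntaxins and SNAP25-type proteins of the plasma membrane, VAMPs of the vesicle, synaptotagmins and Doc2b, the priming and docking proteins, and the factors that assemble or take apart the SNARE complex. A gene belonged to the set by its name alone, and its probes were those whose RefSeq accession carries that symbol in the NCBI mouse table of the assembly GRCm38.p6. This gave 47 probes of 32 genes, out of 20653 named genes on the array. No probe was named for Syt5. The cells were MIN6, an insulin-secreting mouse insulinoma line derived from a transgenic C57Bl/6 mouse, at passages 15 to 20. One culture was transduced with a lentivirus made from pLVX-IRES-ZsGreen carrying mouse FTO, and the control culture with a lentivirus made from the same vector without FTO, so both expressed the green reporter and both were exposed to polybrene. The Cy3-labeled RNA of each culture was read on its own one-color Agilent array. With 1 array per group there is no replicate check and no p-value, and the precision of all values is limited by the number of arrays.

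Insulin is stored in dense-core granules and released when calcium enters the cell through voltage-gated channels. A granule is tethered to the plasma membrane, docked and primed, and a v-SNARE on its membrane then zippers with the t-SNAREs syntaxin and SNAP25 to pull the membranes together. SM proteins guide this assembly, complexins hold the half-zippered complex, and synaptotagmins and Doc2 proteins couple it to calcium through their C2 domains. NSF with its adaptor SNAP takes the used complex apart. Most of these families have several paralogs with different homes in the cell, which raises the question of which of them MIN6 cells express and whether any differed between the arrays.

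Fto itself had a single probe (NM_011936), with a signal of 7301 on the FTO array and 5179 on the control array and a normalized log2 difference of 0.06, below its spot error of 0.20. The vector carries the coding sequence, and the position of the probe in the transcript is not given in the sources used here, so whether the probe reads the transgene cannot be told and it is no check of the labels. The FTO array had the higher median signal, 292 against 237 over all spots that were not controls. This did not hold for every gene: Ins1, a bright one, had 215620 on the FTO array and 220341 on the control array. Differences are therefore given after quantile normalization as the log2 signal of FTO minus control. The spot error is the error that the scanner software assigned to the spots of both arrays, taken to the log2 scale. All 18 beta cell markers examined were well above background on both arrays, among them the insulin gene Ins2, with signals of 276722 on the FTO array and 320363 on the control array, and Pdx1, with signals of 20874 and 15678. None of the 18 was called. Beyond the spot error lay 16.7% of them, beside 28.6% of all named genes. These were Slc2a2 (0.45) and Neurod1 (0.36), higher on the FTO array, and Ins2 (-0.24), lower on it. Of the markers of other cell types, 6 of 7 islet hormone and non-beta islet genes, 5 of 6 neuronal, 4 of 7 acinar and duct, 5 of 6 fibroblast and endothelial and 4 of 5 immune genes were well above background on both arrays, and none of them was called. Of all named genes tested 2.68% were called. Beyond the spot error lay 60% of the tested neuronal, 60% of the acinar and duct and 100% of the immune genes. Of the islet genes 16.7% and of the fibroblast and endothelial genes 33.3% did, beside 28.6% of all named genes. The furthest were Cd79a at -0.91 (spot error 0.26) and Ctrb1 at -0.91 (spot error 0.20). Gcg had signals of 257411 (FTO) and 243558 (control). Detecting these markers thus does not tell cell types apart. In RNA of a whole culture, fewer cells expressing a gene and less RNA per cell cannot be told apart.

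All 47 probes of the exocytosis genes were well above background on both arrays, so each of the 32 genes was measured in both cultures. That level was also reached by 82.0% of all probes for FTO and by 84.9% for the control. Of the 20653 named genes, 17738 reached it in both cultures. Detection therefore says little about which of these paralogs the cells express. By the brightest probe, signals on the FTO array ran from 58.2 for Cadps2 to 187945 for Syt13, and on the control array from 88.0 to 165068. Probes bind their targets with different strength, so signals of different genes are not set against each other here, and detection against the background of the array is all that is read from them. No gene of the set was called, that is, none differed by 2-fold, where 2.68% of the 18513 named genes tested did, 1.09% higher and 1.6% lower on the FTO array. Among named genes well above background on both arrays, as all of these were, the share was 1.23%. A count of 0 in 32 is close to that background and is not a result about these genes.

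**Figure D1:**
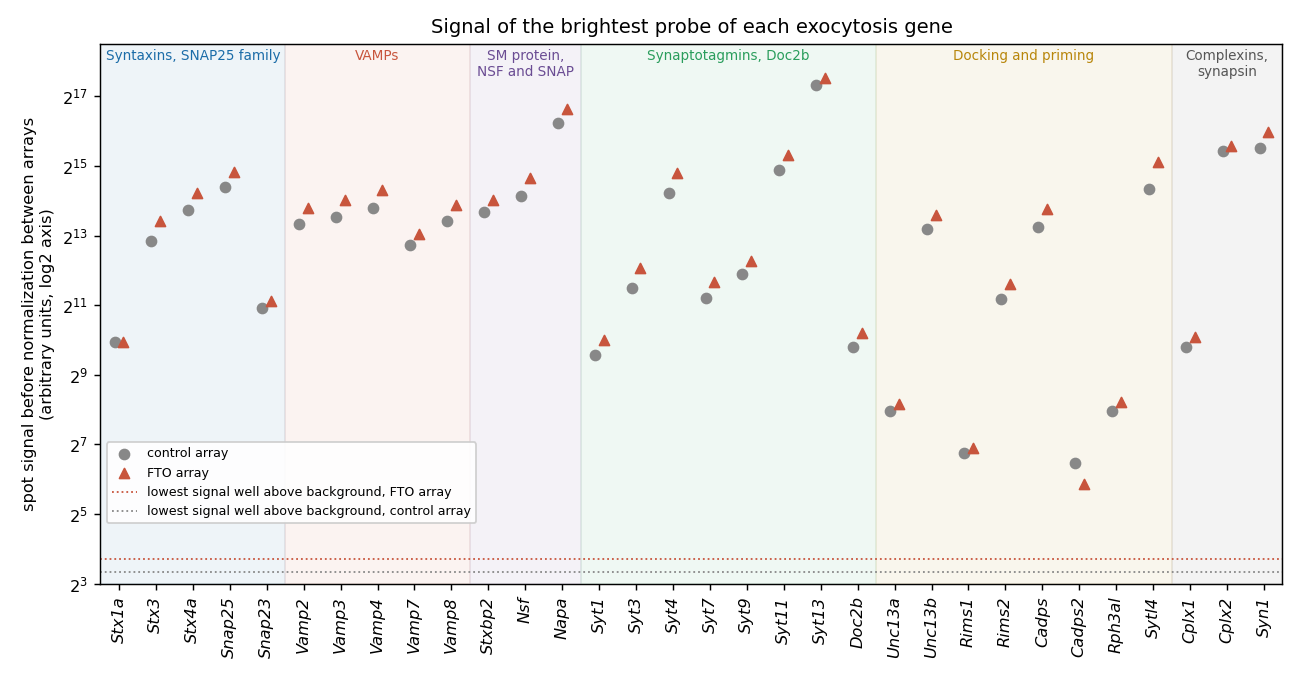
Spot signal (arbitrary units, log2 axis) of the brightest probe of each of 32 exocytosis genes on the control array (circles) and the FTO array (triangles), grouped by role, with dotted lines at the lowest signal well above background on each array (13.1 for FTO and 10.1 for control). Every gene lies above both lines, and the FTO signal is the higher one for all but Cadps2. The FTO array had the higher median signal before normalization.

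The median difference of the 32 genes was 0.0087, beside 0.0064 for all named genes tested, with 18 genes above 0 and 14 below. The genes ran from -0.76 (Cadps2) to 0.33 (Sytl4), and 25 of 32 lay within 0.15 of 0. In 5 genes (15.6%) the difference was at or beyond the spot error, beside 28.6% of all named genes tested. These were Stx1a, Snap23, Cplx2 and Cadps2, lower on the FTO array, and Sytl4, higher on it. The exocytosis genes are bright, and the fitting background is narrower. Of the 28 members with a signal over 500 on both arrays 4 were beyond the spot error, against 15.9% of all named genes that bright, and none differed by 1.5-fold, against 0.647%. With a limit of 1.5-fold over all members 1 gene passed, Cadps2, where 6.96% of named genes did, and with a limit of 2 spot errors it was again Cadps2 alone, where 8.51% of named genes passed.

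Among the t-SNAREs of the plasma membrane, Stx1a, the syntaxin that forms the core complex with SNAP25 in neurons and beta cells, had the largest difference. Its single probe (NM_016801) gave 984 on the FTO array and 977 on the control array. These are nearly equal signals on arrays of unequal brightness, and after normalization Stx1a stood at -0.37, or 0.772 times the control, where the spot error is 0.20. Of 1181 named genes with a mean signal within 0.5 of that of Stx1a on the log2 scale, 4.06% were lower by at least as much. Probes printed 10 times on each array give the scatter between spots of one array: at log2 signals from 9 to 11 their median SD was 0.06 on the FTO array (52 probes) and 0.05 on the control array (62 probes). This scatter leaves out everything that differs between cultures, labelings or arrays. The Stx1a spot lies outside the area of the FTO array where repeated spots lost signal, though that area was mapped from dimmer spots than this one. The median difference of its 90 neighbouring probes within 5 rows and columns was -0.03.

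Snap25, the partner of Stx1a, had signals of 29190.1 and 21432 and a difference of 0.0020. Stx4a, the more widely expressed syntaxin that also serves glucose transporter vesicles, had a pair of probes with differences of 0.05 and 0.0060. All of these differences are well inside the spot error. Stx3, a syntaxin found on granules as well as at the plasma membrane, had 3 probes with differences of 0.13, -0.0085 and -0.04. One of them (NM_152220) is printed 10 times, which makes it the value of the set that averages the most spots. Its spots ranged from 1932 to 2118 on the FTO array, with a median of 2014, and from 1401 to 1632 on the control array, with a median of 1538. The SD of the spots was 0.04 and 0.06 on the log2 scale, and after normalization it stood at -0.0085, inside its spot error of 0.06. Snap23, the ubiquitous relative of Snap25, had signals of 2206 and 1929 and a difference of -0.20 at its brighter probe (NM_001177792), whose spot lies in the area of lost signal. The probe of the accession NM_009222, outside that area, had signals of 2170.3 and 1508 and a difference of 0.12, so the probes of Snap23 disagree in sign.

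The 5 VAMPs had the smallest range of the role groups, from -0.11 to 0.06. Vamp2, the v-SNARE of the insulin granule, had signals of 14044 on the FTO array and 10398 on the control array and a difference of -0.00035. Vamp3 (cellubrevin), its relative on recycling vesicles, had 16748 and 11813 and a difference of 0.06. Vamp8, of endosomes and secretory granules, had 14905 and 10913 and a difference of -0.0024. These 3 v-SNAREs were all detected and all well inside the spot error. Vamp4, of the trans-Golgi network, had differences of 0.05 and 0.08 at its probes, and Vamp7, the longin-type v-SNARE of late endosomes and lysosomes, had signals of 8434 and 6739 and a difference of -0.11.

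Of the factors around the complex, Stxbp2 (Munc18-2), an SM protein best known from mast cells and epithelia, had differences of -0.10 and 0.05 at its probes. Nsf, the ATPase that separates spent SNAREs, had signals of 25938 and 18077 and a difference of 0.08. Napa, which encodes the adaptor alpha-SNAP, had a difference of 0.08 at its brightest probe, with signals of 101465 and 76973, and of 0.27 at the other, with 33608 and 20506. The value of 0.27 is beyond its spot error of 0.20, but the 61 neighbouring probes had a median of 0.12, and the part of position in it was not tested.

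All 8 calcium sensors with a probe were detected, and 7 of them lay above 0, with a median of 0.05 and a range of -0.06 to 0.17. None was beyond its spot error. Of the 18513 named genes tested 9553 lay above 0. The count above 0 depends on the scaling. Scaled to the 75th percentile, which takes the median of all named genes to -0.06, Syt13 (-0.24) and Doc2b (-0.02) fell below 0, and the other sensors kept their sign. Syt13 moved by more than that median did. It was also below 0 with cyclic loess (-0.14), and Syt11 was with normexp background correction (-0.0042). Syt7, the high-affinity sensor of slow granule release, had signals of 3266 and 2367 and a difference of 0.07, and a second, dim probe with 48.8 and 48.1 had -0.09. Syt9, a fast sensor of insulin-secreting cells, had 4930 and 3817 and a difference of -0.06. The names Syt5 and Syt9 have been exchanged in part of the literature, and here Syt9 is the gene of NM_021889. Syt1, the fast sensor of synapses, was measured as well, with signals of 1029 and 754 and a difference of 0.07.

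Syt3 had differences of 0.17 and 0.18 at its probes, the closest repeat among the genes with several probes (signals 4324 and 2874 at one, 627 and 438 at the other). Syt4, a synaptotagmin that binds calcium poorly, had signals of 28698 and 18983 and a difference of 0.16. Of 1449 named genes with a similar signal, 8.83% were higher by at least as much. Its close relative Syt11 had 40909 and 30206 and a difference of 0.0082. Syt13, an atypical member without the usual calcium-binding residues, had 187945 and 165068 and a difference of 0.03. Doc2b, a soluble C2-domain protein that binds syntaxin and promotes granule fusion, had 1183 and 891 and a difference of 0.04. Detection thus covered both the calcium-binding synaptotagmins and those that bind it poorly.

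Docking and priming held the largest differences in each direction. Sytl4 (granuphilin), the Rab27a effector that tethers insulin granules to syntaxin at the plasma membrane, had signals of 35325 on the FTO array and 20681 on the control array. After normalization it stood at 0.33, or 1.26 times the control, where the spot error is 0.20. Of 1384 named genes with a similar signal, 0.434% were higher by at least as much, the smallest such share among the members. The median SD of repeated spots at log2 signals from 13 to 16 was 0.06 on the FTO array and 0.05 on the control array. The spot lies in the 4th row of the array, where the 69 neighbouring probes had a median difference of 0.12, and its single probe leaves no second reading.

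Cadps2, one of the CAPS proteins that prime dense-core granules, had the lowest difference, and its 3 probes did not agree. The probe of NM_001252107 had signals of 58.2 and 88.0 and a difference of -0.76 (spot error 0.22). The brighter probe of NM_153163 had 55.6 and 39.5 and a difference of 0.38 (spot error 0.24), and the other had 33.8 and 33.4 and a difference of -0.06. All were dim, at 2.59 to 4.45 times the lowest signal well above background on the FTO array, and repeated probes that dim had a median SD between spots of 0.20 on the FTO array at log2 signals from 5 to 6. Of 1519 named genes with a signal like that of the first probe, 4.48% were lower by at least as much. Its paralog Cadps was well measured, with signals of 13995 and 9779 and a difference of 0.08.

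The RIM proteins are active-zone scaffolds that bind Rab3 and Munc13. Rims2 had signals of 3103 and 2337 and a difference of 0.0091, while the probes of Rims1 had 120.0 and 109, and 54.0 and 48.6, with differences of -0.05 and 0.03. Rims1 and Cadps2 were the only genes of the set with every probe under a signal of 200 on both arrays. Unc13a (Munc13-1), the priming protein that opens syntaxin, had 285 and 248 and a difference of -0.09, and Unc13b (Munc13-2) had 12393 and 9389 and a difference of -0.04. Rph3al (Noc2), an effector of Rab3 and Rab27 in endocrine cells, had 298 and 247 and a difference of -0.02. None of these was beyond its spot error.

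**Figure D2:**
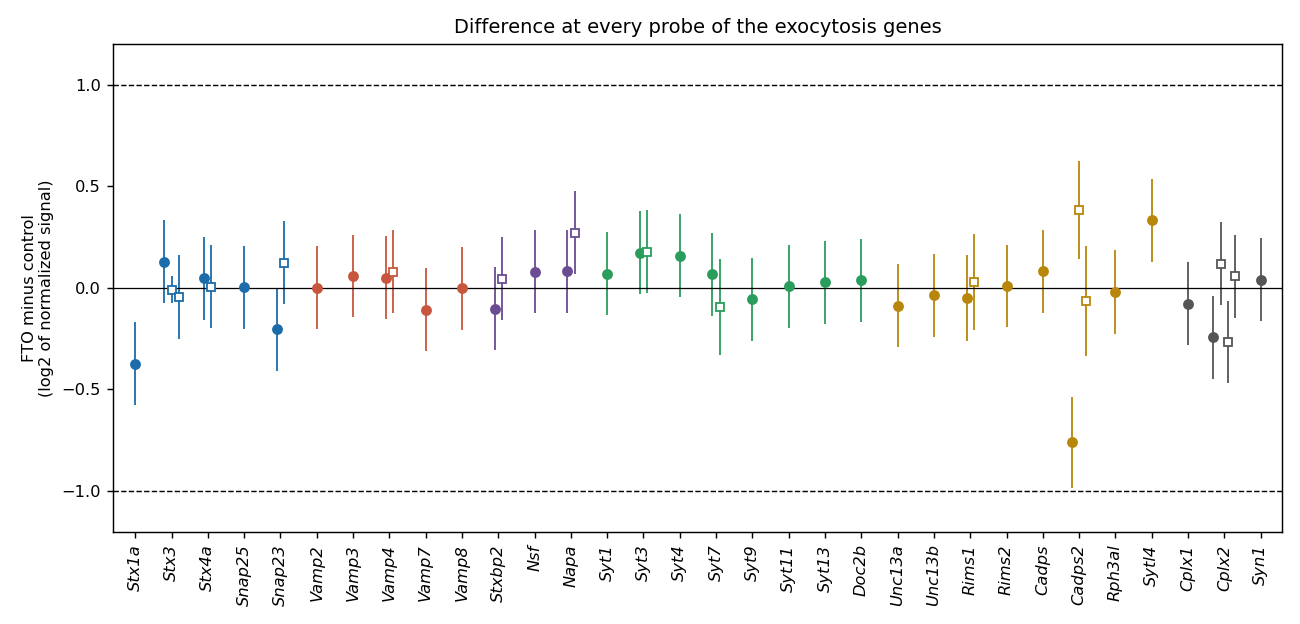
Difference of the normalized log2 signal, FTO minus control, at each of the 47 probes of 32 exocytosis genes (filled circle, brightest probe of the gene; open square, other probes; bars, spot error; colours by role), with dashed lines at 2-fold. No probe reaches a dashed line, and the probes of Cadps2 run from -0.76 to 0.38.

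The complexins, which bind the assembled SNARE complex and both clamp and promote fusion, were read by 5 probes. Cplx1 had signals of 1093 and 891 and a difference of -0.08. Cplx2 had 4 probes, all of the accession NM_009946, and they fell into pairs. One pair had differences of -0.24 (signals 48981 and 43690) and -0.27 (20565 and 18192), both beyond the spot error of 0.20. The other pair had 0.12 (36259 and 24615) and 0.06 (13587 and 9671). The 4 probes ranged over 0.39, where each difference carries a spot error of 0.20. Repeated spots this bright had a median SD of 0.05 to 0.06 within 1 array. That SD is not the scatter of a difference between arrays, so it cannot be used to judge the gap between the pairs. The neighbouring probes of the 4 spots had medians of 0.04 to 0.06, and of them only the spot with 0.12 lies in the area of lost signal. What sets the probes of Cplx2 apart was not tested, and the -0.24 of the brightest probe is a value of that probe rather than of the gene.

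Syn1, the phosphoprotein that anchors vesicles to actin and to each other in nerve endings, had signals of 64165 and 47159 and a difference of 0.04. Its promoter is shown, chosen after the values were seen, for a piece of the element that marks many neuronal genes. The repressor REST silences neuronal genes in other tissues by binding an element that opens with the letters TTCAGCACC. These letters, searched on both strands in the 250 bases before the transcript start in RefSeq (GRCm38.p6), were found in 1 of the 23 members that have a promoter sequence in the table, Syn1, and in 0.348% of all 27025 genes. In the sequence of the mouse Syn1 promoter, chrX:20920919-20921168 on the minus strand, the letters are in capitals and lie 232 to 224 bases before the start.
Syn1: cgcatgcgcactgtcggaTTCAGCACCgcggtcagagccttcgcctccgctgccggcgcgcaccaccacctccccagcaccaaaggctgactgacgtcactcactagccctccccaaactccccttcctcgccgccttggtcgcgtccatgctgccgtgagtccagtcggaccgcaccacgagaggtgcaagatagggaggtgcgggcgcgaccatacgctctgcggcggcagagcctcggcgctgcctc
The match is a description of the sequence, and no measurement here reads the factor at this site.

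Different probes of the same gene give further readings of it. Of the 32 genes 11 had more than 1 probe, 26 probes in all. In 4 genes the probes had one sign (Stx4a, Vamp4, Napa and Syt3) and in 7 both signs. The range over the probes of a gene had a median of 0.16, close to the spot error of 0.20, and exceeded 0.5 only for Cadps2. Over all 47 probes 28 lay above 0 and 19 below, 41 were within 0.25 of 0, and none reached 2-fold. The 7 probes in the area of lost signal of the FTO array ran from -0.20 to 0.12 with a median of 0.06, and the other 40 had a median of 0.02. With the blocks of lost signal of the control array counted too, 10 probes lay in such blocks. The further ones were the probe of Unc13b, the dimmer probe of Stx4a and the dimmest probe of Cadps2. The part of the lost signal in single values was not tested.

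**Figure D3:**
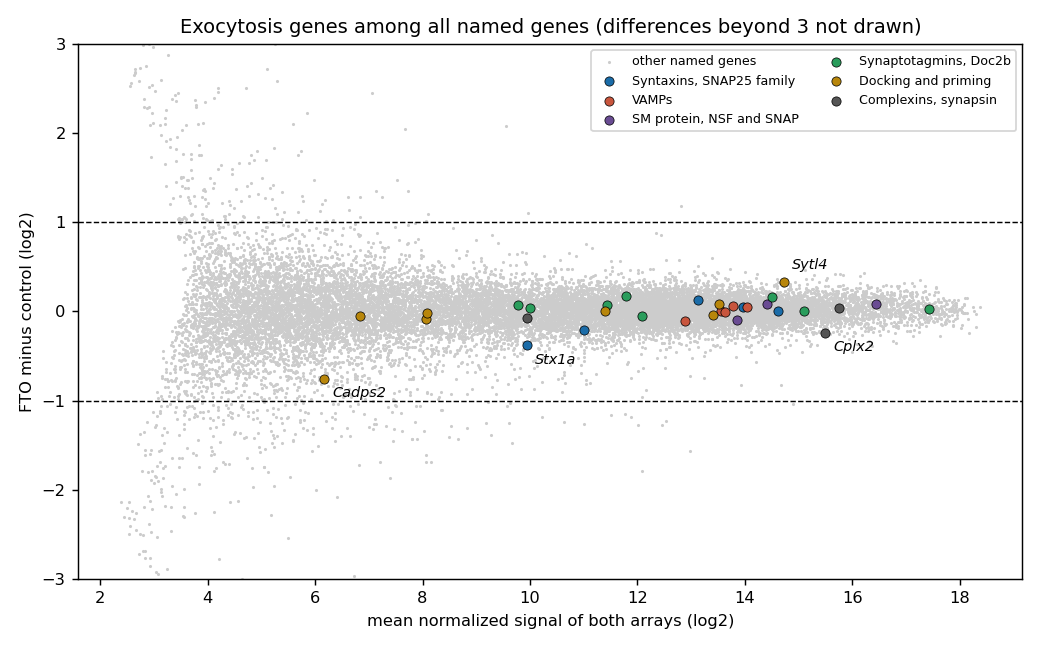
Difference of the normalized signal, FTO minus control (log2), against the mean normalized signal of both arrays (log2) for the brightest probe of each named gene tested (grey) and of the 32 exocytosis genes (coloured by role), with dashed lines at 2-fold. The members lie within the grey cloud, which narrows as the signal increases, with Sytl4 (0.33) at its upper edge and Stx1a (-0.37), Cplx2 (-0.24) and Cadps2 (-0.76) towards its lower edge.

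The wider pathway was described with 84 other genes of vesicle fusion, listed with earlier results of these data known: other syntaxins and Golgi SNAREs, SM proteins, synaptotagmins, active-zone scaffolds, the exocyst and vesicle proteins. Of these 83 were tested, 82 were well above background on both arrays, and the median difference was 0.02, with 46 above 0 and 37 below. A single gene was called, where 2.68% of all named genes were. This was Stx19, a syntaxin without a transmembrane segment. Its signal of 19.03 on the FTO array faced 7.30 on the control array, not well above background there. Set against the lowest signal well above background on the control array after normalization, it was at least 1.89-fold higher on the FTO array. It was no longer past 2-fold with normexp background correction (0.11) or with the 75th percentile scaling (0.96). The 9 exocyst genes, which tether vesicles ahead of the SNAREs, ran from -0.28 to 0.16, and none was called.

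Second probes differed by over 2-fold in a pair of the genes of the wider list, named here after their values were seen. For Stx8, an endosomal syntaxin, a dim probe with signals of 32.7 and 14.04 had 1.18, while the bright one had -0.06. For Pclo, the giant active-zone scaffold Piccolo, a probe with signals of 1525 and 2886 had -1.32 at a spot in the area of lost signal, while the other 3 probes lay between 0.21 and 0.26. In both genes the reading rests on 1 probe that the others do not share.

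**Figure D4:**
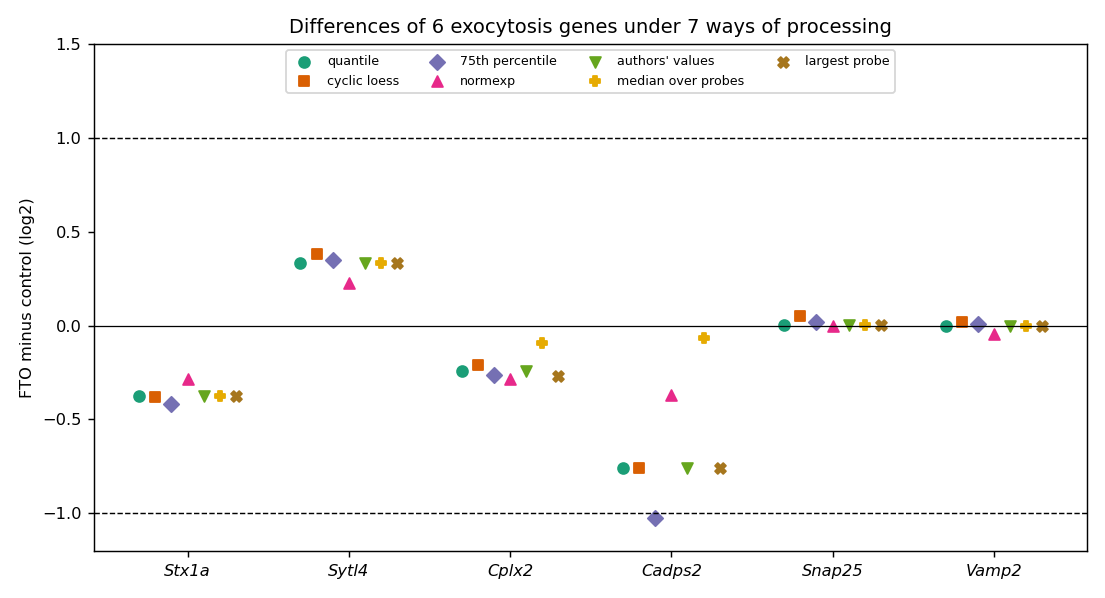
Difference, FTO minus control (log2), of 6 exocytosis genes under 7 ways of processing: quantile normalization as reported, cyclic loess, scaling to the 75th percentile, normexp background correction, the authors' processed values, the median over the probes of a gene, and its probe with the largest difference, with dashed lines at 2-fold. Stx1a stays between -0.42 and -0.29, Sytl4 between 0.23 and 0.38 and Cplx2 between -0.29 and -0.09, Snap25 and Vamp2 stay near 0, and Cadps2 runs from -1.02 to -0.06.

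Of the members with a difference beyond the spot error, Stx1a, Sytl4 and Cplx2 kept their sign in the ways of processing that the plot shows, though Cplx2 was at -0.09, inside the spot error, as the median over its probes. Stx1a and Sytl4 have 1 probe each, so the probe rules could not change them. Snap23 turned to 0.12 with the area of lost signal left out, and the size for Cadps2 depended on the scaling and on the probe. Scaling to the 75th percentile, which takes the median of all named genes to -0.06, brought Cadps2 to -1.02, the one value past 2-fold among the members. It also changed the balance of all calls, from 201 higher and 296 lower genes to 125 higher and 606 lower.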

How the data were processed

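Each of the 2 arrays held RNA of 1 culture. The authors' deposited spot tables hold intensity values from Feature Extraction 11.0.1.1, background-subtracted and detrended, which are not normalized between arrays. The authors also deposited log2 values, quantile normalized in GeneSpring GX 11.5. The authors' fold changes were not used. Control spots and outlier spots (148 on the FTO array, 141 on the control array) were left out. None was saturated. Repeated spots were averaged per probe as log2 values and quantile normalized with limma 3.58.1 (R 4.3.3), and Python 3.11.15 did the rest, with pandas 2.3.3, numpy 2.4.6 and matplotlib 3.10.9. Of 39417 probes 27224 had a symbol by accession. A probe was tested if well above background on 1 array or both (50% of the spots of repeated probes). A gene took its brightest probe and was called past 2-fold. The alternatives were normexp (offset 50), other scalings, filters, probe rules and limits. Files hold no mean spot signal, so normexp used medians. All members, called genes of the wider list, Fto and defining markers were named. The area of lost signal is 6 of 35 blocks (76 rows, 17 columns) of the FTO array where at least 15% of the spots of 79 repeated probes lay over 0.5 below their median. These probes had median log2 signals of 4.5 to 8 on the control array, so loss at brighter spots was not assessed. The control array had 2 such blocks, and the setting without lost signal left out the blocks of both arrays. Steps were checked on simulated arrays. The members, lists and blocks were chosen with earlier results of these data known.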

Additional observations from a re-analysis of the deposited data

How the results depend on the processing

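No paired analysis was possible because each group holds 1 array, and for the same reason no array could be left out. The processing was varied in 12 ways. For the exocytosis genes the number past 2-fold stayed at 0 except with the 75th percentile scaling, which gave 1 (Cadps2), and the limits of 1.5-fold and of 2 spot errors gave 1 each. The median of the set stayed between -0.0038 and 0.03. Of 255 values of single members and Fto, 249 lay within 1 spot error of the reported value. The other 6 were of Cadps2 (-0.37 with normexp, -1.02 with the 75th percentile, -0.06 as the median over probes), Rims1 (-0.28) and Syt13 (-0.24), both with the 75th percentile, and Snap23 (0.12 without the area of lost signal, where its other probe is read). Fto ranged from 0.0007 to 0.07.

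Among the wider list the count of 1 became 0 with normexp, with detection required on both arrays or with dim signals raised to the detection floor, 3 with the probe of the largest difference, 3 at 1.5-fold and 8 at 2 spot errors, and its median became -0.0198 with the 75th percentile and 0.0505 without the blocks of lost signal. For all named genes the count of 497 became 55 with normexp, 218 with detection on both arrays, 262 without the blocks, 331 with dim signals raised, 891 without a filter, 1288 at 1.5-fold and 1576 at 2 spot errors. Their median of 0.0064 became -0.0555 with the 75th percentile, 0.00022 with cyclic loess, 0.0099 without a filter, 0.0106 with detection on both arrays, 0.0105 with the probe of the largest difference and 0.0027 without the blocks. Where fewer probes are tested or dim signals are raised to a floor the counts shrink by construction, and with a limit of 1.5-fold they grow by construction. The offset of 50 in normexp pulls log2 differences of dim signals towards 0, and its part in the lower count was not tested. Otherwise the cause was not tested. Dim signals limit Cadps2, Rims1 and the second probe of Syt7, each read by single spots, and repeated probes scattered more at such signals than at brighter ones.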
